A study of Arabidopsis thaliana with 21 samples.

Results

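The 9 genes described here encode the enzymes of the general phenylpropanoid pathway in Arabidopsis thaliana: the phenylalanine ammonia-lyases PAL1 (AT2G37040), PAL2 (AT3G53260) and PAL4 (AT3G10340), the cinnamate 4-hydroxylase C4H (AT2G30490), the 4-coumarate:CoA ligases 4CL1 (AT1G51680), 4CL2 (AT3G21240), 4CL3 (AT1G65060) and 4CL5 (AT3G21230), and the hydroxycinnamoyltransferase HCT (AT5G48930). They were chosen by name for their place in the pathway, from 27444 protein-coding genes on chromosomes 1 to 5. Each gene was described by the H2A.Z and H4Ac peaks that overlapped its body or the 1000 bp upstream of its start, together called the gene window. The 9 windows had a median length of 4136 bp, against 3078 bp for all protein-coding genes. A longer window can meet more peaks, and the shares of genes with a peak were not adjusted for length.

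The study asked what the loss of MBD9, a methyl-CpG-binding domain protein, does to H2A.Z in chromatin. Chromatin was taken from the shoots of 6-day-old seedlings, with the roots cut off, and immunoprecipitated with an antibody against H2A.Z or against acetylated histone H4 (H4Ac). Peak lists of 9 libraries were used: 3 H2A.Z libraries of mbd9-1 (a T-DNA insertion allele of MBD9 in the Col-0 background), 3 H4Ac libraries of WT (Col-0) and 3 H2A.Z libraries of WT. Of 21 samples in all, those of arp6-1, the inputs and H4Ac in mbd9-1 were not analysed here. The study names its replicates biological triplicates. The seedling shoot is a mixture of cell types, so a mark held by fewer cells cannot be told apart from less of the mark per cell. A peak list gives positions only, so neither the mutant allele nor the tissue could be checked from it.

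The pathway turns phenylalanine into activated hydroxycinnamic acids, the precursors of lignin, flavonoids and sinapate esters. PAL removes ammonia from phenylalanine to give cinnamate, C4H, a cytochrome P450, hydroxylates it to p-coumarate, and 4CL joins p-coumarate to coenzyme A. HCT then moves the p-coumaroyl group to shikimate or quinate, which leads to the lignin branch. H2A.Z is a variant of histone H2A that the SWR1 complex deposits, often in the nucleosomes just after the start of a gene and, in plants, also across the bodies of responsive genes. Acetylation of histone H4 is a mark of transcribed genes.

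The lists held 5215 to 5733 peaks per mbd9-1 H2A.Z library, 10439 to 12030 per WT H4Ac library and 6263 to 9260 per WT H2A.Z library. Median peak widths were 381 to 652 bp in mbd9-1, 788 to 819 bp for H4Ac and 587 to 668 bp in WT. The lists give no read counts and so do not show the depth behind a peak, and a gene without a peak may still carry the mark below the level at which peaks were called. Peak calls in mbd9-1 replicate 3 stood apart from the other libraries, since 64.4% of its peaks had the shortest width, 381 bp. The share of a gene window under a library's peaks (the covered share, in percent) was used as the graded value. With 3 libraries against 3, an exact two-sided permutation test cannot give a p below 0.1. A gene was therefore called lower or higher only when no library of one group overlapped the range of the other.

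H2A.Z peaks were found at each of the 9 genes in at least 1 library, beside 15234 of 27444 protein-coding genes. A peak in every WT library was found at 3 genes, against 17.8% of all genes, and in every mbd9-1 library at 2, against 7.07%. Of the 9 genes, 6, 5 and 3 had a peak in mbd9-1 replicates 1, 2 and 3, against 6, 7 and 7 in those of WT. Over all protein-coding genes the shares with a peak were 20.6%, 23.7% and 15.9% in mbd9-1, against 37.7%, 26.0% and 32.5% in WT. The mean covered share of the 9 genes was 12.2%, 8.24% and 3.05% in the mbd9-1 libraries, against 14.9%, 14.5% and 15.7% in the WT libraries. The libraries of mbd9-1 all lay below those of WT, with replicate 3 lowest. The same held for all protein-coding genes, whose mean covered shares were 4.75%, 5.96% and 2.53% for mbd9-1 libraries, against 9.83%, 6.01% and 7.83% for WT libraries, although mbd9-1 replicate 2 came close to WT replicate 2.

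HCT was the only one of the 9 genes called lower in mbd9-1, and none was called higher. Among 15234 genes with an H2A.Z peak in any of these 6 libraries, 17.9% were lower in every mbd9-1 library and 2.17% were higher. The 1 of 9 genes called lower is therefore a share near that of all genes. The median difference of the 9 genes, mbd9-1 minus WT, was -8.17 percentage points, beside a median of -5.03 over all 15234 genes. Without mbd9-1 replicate 3 the median difference of the 9 genes was -4.13 points, beside -4.75 over all genes tested at that setting. HCT was then lower in every mbd9-1 library left, as were 19.3% of all genes tested. C4H was higher in every library left, a call that was not set beside all genes. No gene among these 15234 had an unadjusted exact p below 0.05, so no adjusted p passed either, and the smallest Benjamini-Hochberg adjusted p was 0.498.

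**Figure D1:**
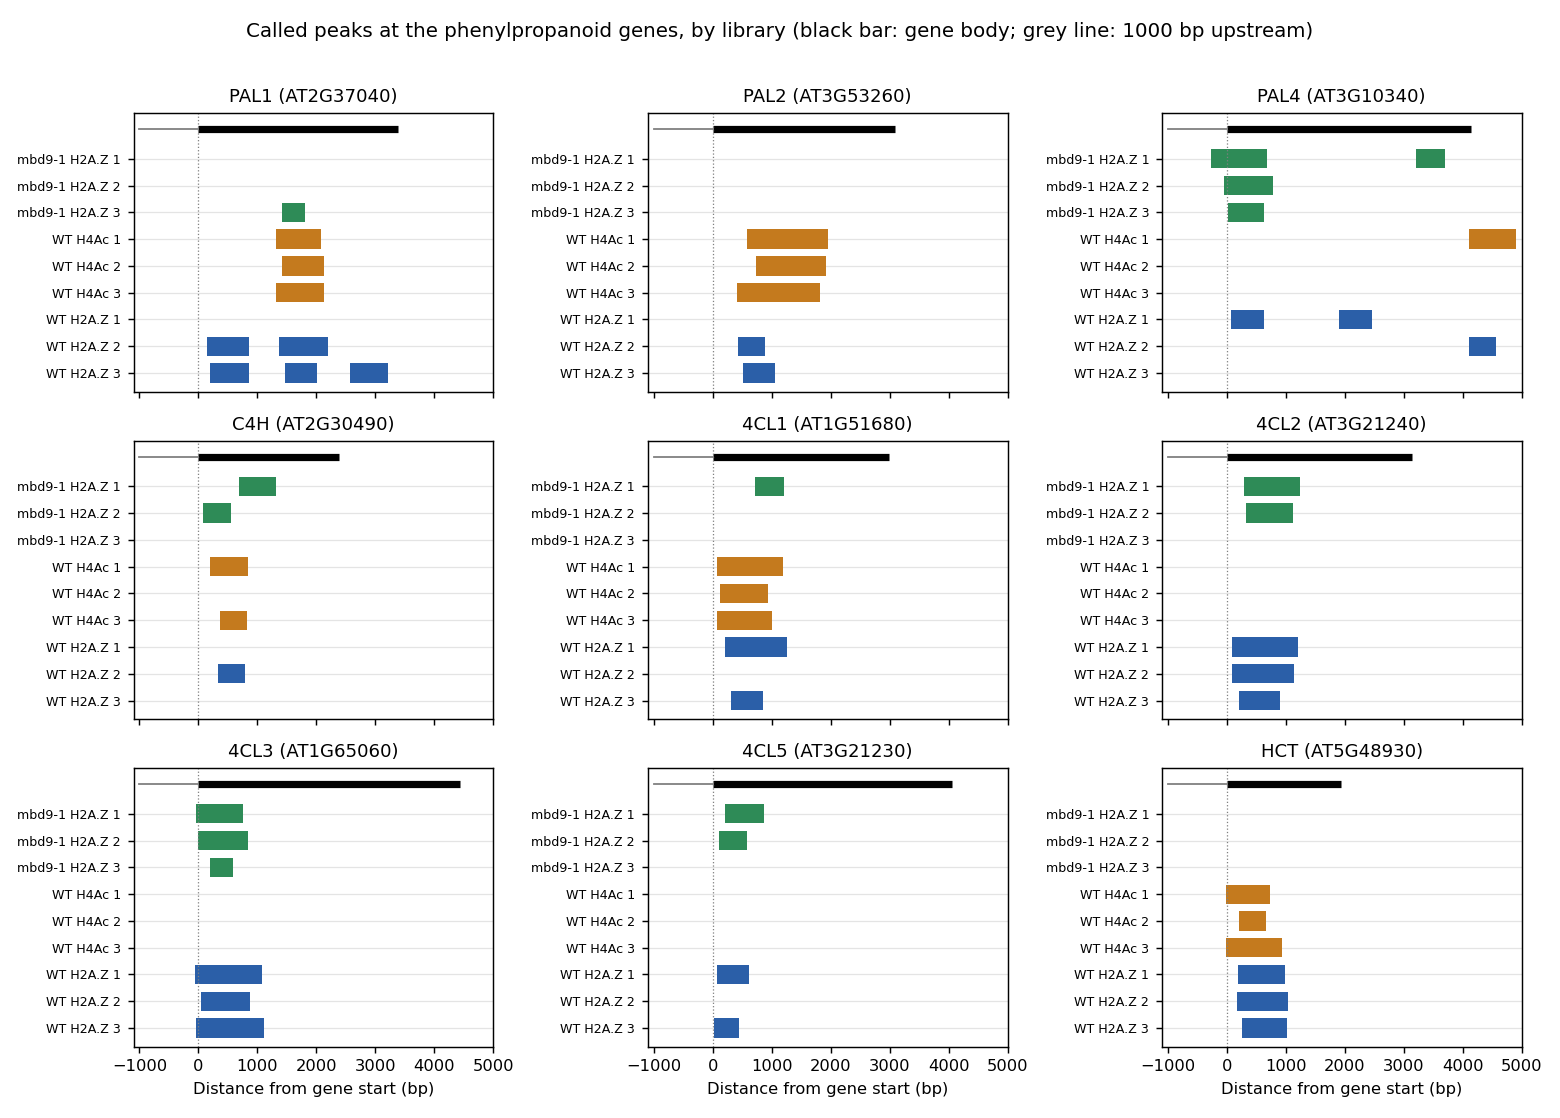
Peaks of each library drawn against the distance from the start of the gene, in bp, for the 9 genes. Rows are the 3 libraries each of mbd9-1 H2A.Z (green), WT H4Ac (orange) and WT H2A.Z (blue). HCT and PAL2 hold no green bar, 4CL2, 4CL3 and 4CL5 hold no orange bar, and 4CL3 holds a green or a blue bar in each of the 6 H2A.Z libraries.

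The peaks sat inside the genes and mostly near their starts. The 9 windows held 54 peaks in the 9 libraries, of which 46 had their centre in a coding exon, 3 in an untranslated region, 3 in an intron and 2 beyond the end of the gene. None was centred upstream of the gene start. Centres within the first 1000 bp of the gene made up 86.7% of the 15 mbd9-1 H2A.Z peaks, 53.3% of the 15 WT H4Ac peaks and 79.2% of the 24 WT H2A.Z peaks. For all protein-coding genes the same shares were 52.4%, 68.3% and 56.5%, so this share was larger at the 9 genes for H2A.Z and smaller for H4Ac. These shares are descriptions with no test, since peaks of 1 gene in several libraries are not independent.

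Sequences of the regions that the results turn on are given here in TAIR10 coordinates, read from the RefSeq copy of that assembly. The first set holds 120 coding bases from inside the shared peak segments of 3 genes, HCT, 4CL3 and PAL4. The HCT bases (chr5:19837713-19837832, minus strand) lie in the 409 bp that every H4Ac and every H2A.Z peak of WT covered. The 4CL3 bases (chr1:24171183-24171302, minus strand) lie in the 381 bp covered in all 6 H2A.Z libraries, and the PAL4 bases (chr3:3204296-3204415, plus strand) in the 604 bp covered in all 3 mbd9-1 libraries. They are written 5′ to 3′ on the strand of the gene, with no part marked.
HCT: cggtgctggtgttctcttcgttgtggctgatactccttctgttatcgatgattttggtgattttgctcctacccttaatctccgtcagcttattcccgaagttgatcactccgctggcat
4CL3: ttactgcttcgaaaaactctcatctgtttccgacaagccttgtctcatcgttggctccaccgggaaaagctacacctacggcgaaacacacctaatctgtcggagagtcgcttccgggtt
PAL4: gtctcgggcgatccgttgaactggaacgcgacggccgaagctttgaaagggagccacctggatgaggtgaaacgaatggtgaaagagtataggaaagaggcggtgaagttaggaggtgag

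HCT (chr5:19836299-19838235, minus strand, 2 coding exons) showed the largest difference in covered share between genotypes among the 9 genes with all libraries in. PAL1 differed more without WT replicate 1 (-35.5 points, against -27.7 for HCT). In bases, WT H2A.Z peaks covered 0, 1526 and 1845 bp at PAL1, against 790, 862 and 765 bp at HCT. HCT had the shortest of the 9 windows (2937 bp, against 4389 bp for PAL1), which raises its share for the same bases. Its window was free of H2A.Z peaks in all 3 mbd9-1 libraries, against covered shares of 26.9%, 29.3% and 26.0% in the 3 WT libraries. The WT libraries varied little and every one lay above every mbd9-1 library. The difference was -27.4 percentage points (mbd9-1 mean 0, WT mean 27.4 ± 1.71, SD, n = 3 each), with an exact two-sided permutation p of 0.1, the smallest possible, and an adjusted p of 0.498 over all genes. In WT the peaks ran over 192 to 981 bp, 174 to 1035 bp and 259 to 1023 bp after the gene start, over most of the first coding exon, the intron and part of the second coding exon. The nearest mbd9-1 peaks to the 723 bp that these 3 peaks shared lay 3375, 1712 and 3000 bp away in replicates 1, 2 and 3. Each of them was upstream of HCT and outside its window. HCT was the 1 gene of 9 with a peak in every WT and no mbd9-1 library, a pattern seen at 5.31% of all genes. Without WT replicate 1, PAL2 had it too, under a looser rule that asks for fewer libraries. When the window was extended to 2000 bp upstream it took in the nearest peak of mbd9-1 replicate 2, so that this count became 0, while HCT was still lower in every mbd9-1 library.

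**Figure D2:**
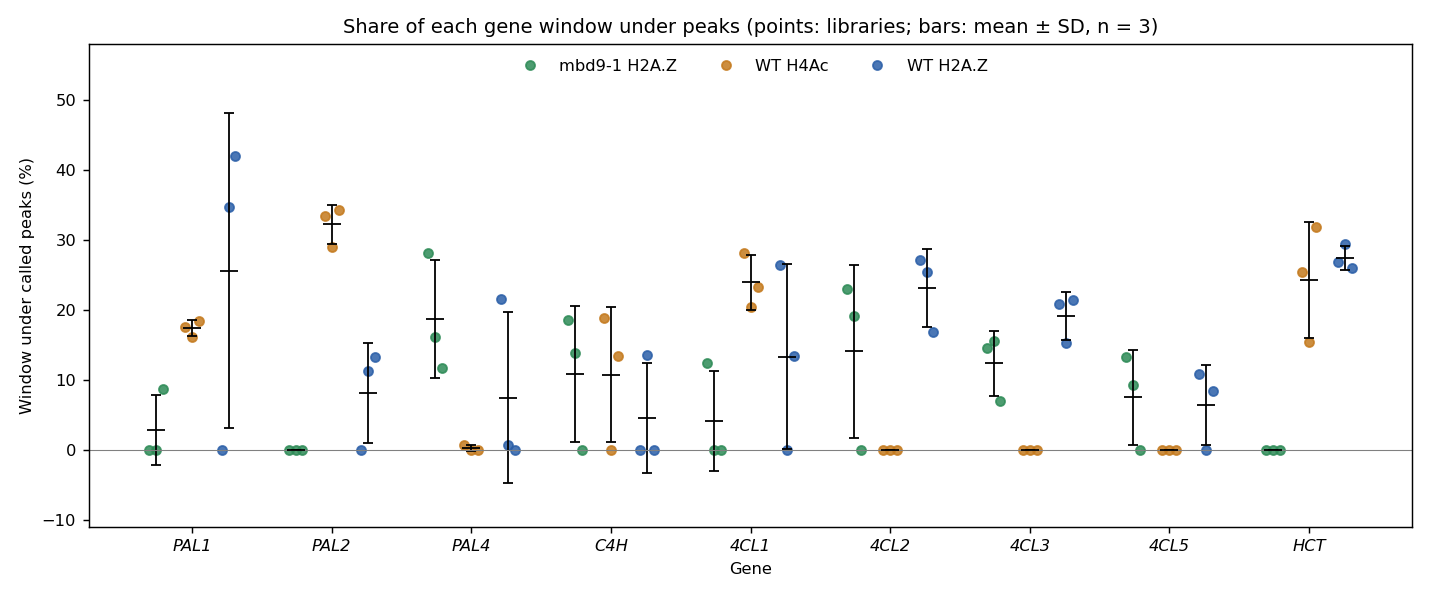
Covered share of each gene window, in percent, per library, with the mean and SD of 3 libraries, for mbd9-1 H2A.Z (green), WT H4Ac (orange) and WT H2A.Z (blue). At HCT the mbd9-1 points all lie at 0 and the WT H2A.Z points between 26.0% and 29.3%. In the other 8 genes the 2 H2A.Z groups overlap, also at PAL2, where the mbd9-1 points all lie at 0 too.

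The PAL genes, whose products make the entry step, differed among themselves. PAL1 (chr2:15557367-15560755, minus strand) had covered shares of 0%, 0% and 8.68% in mbd9-1, against 0%, 34.8% and 42.0% in WT. WT replicates 2 and 3 stood far above the mbd9-1 libraries, but WT replicate 1 had no peak, so the groups overlapped (difference -22.7 percentage points, exact permutation p = 0.4, adjusted p = 0.804). The difference was -35.5 points without WT replicate 1 and -14.5 points without WT replicate 3. The WT signal of PAL1 came from separate peaks along the gene. One covered 152 to 853 bp in replicate 2 and 197 to 853 bp in replicate 3, another 1368 to 2191 bp and 1465 to 2010 bp, and replicate 3 alone had one at 2577 to 3218 bp. The single mbd9-1 peak, at 1419 to 1799 bp in replicate 3, lay within the middle peak of WT replicate 2.

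PAL2 (chr3:19744018-19747114, minus strand) had no H2A.Z peak in any mbd9-1 library, against 0%, 11.3% and 13.3% in WT. The single WT library without a peak, again replicate 1, made the groups overlap (difference -8.17 points, exact permutation p = 0.4, adjusted p = 0.804). PAL1 and PAL2 thus had the same order of WT libraries, with none in replicate 1 and most in replicate 3. Without WT replicate 1, the library that made the overlap, both were lower in every mbd9-1 library, as were 22.3% of all genes tested.

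PAL4 (chr3:3203988-3208135, plus strand) pointed the other way. Its covered shares were 28.1%, 16.2% and 11.7% in mbd9-1, against 21.5%, 0.738% and 0% in WT. All 3 mbd9-1 libraries had a peak at or just after the gene start, at -275 to 678 bp, -43 to 789 bp and 26 to 629 bp, whereas in WT only replicate 1 did, at 71 to 628 bp. WT replicate 2 touched the window by 38 bp at the end of the gene. The mean was higher in mbd9-1 by 11.3 points (18.7 ± 8.49% against 7.43 ± 12.2%, SD, n = 3 each). The groups overlapped through WT replicate 1 (exact permutation p = 0.3, adjusted p = 0.804). Leaving out that library, which alone made the overlap, put every mbd9-1 library higher by construction. The difference was 18.3 points without WT replicate 1 and 6.53 points without mbd9-1 replicate 1. Part of the PAL sequence is repeated in the genome: 0.714% of 50-base words in the window of PAL1, 0.766% in that of PAL2 and 1.31% in that of PAL4 occur elsewhere in the genome, against 0% for the other 6 genes. Reads were 50 bases long, so reads made of these words could not be placed at 1 site.

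C4H (chr2:12993625-12996012, minus strand), the P450 of the second step, had few peaks in either genotype. Its covered shares were 18.6%, 13.9% and 0% in mbd9-1, against 0%, 13.6% and 0% in WT. The groups overlapped and the difference of 6.31 points was within the spread of the libraries (exact permutation p = 0.4, adjusted p = 0.804). It was 2.42 points without mbd9-1 replicate 1, 11.7 without mbd9-1 replicate 3, 10.8 without WT replicate 2 and 4.04 without WT replicate 1 or 3. The peaks of the 2 mbd9-1 libraries, at 680 to 1310 bp and 73 to 543 bp, did not overlap each other, so no position of C4H was covered more than once in mbd9-1.

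Among the 4CL genes, 4CL2 and 4CL3 had H2A.Z peaks in every WT library, and 4CL1 and 4CL5 in 2 of 3. 4CL3 (chr1:24167202-24171635, minus strand), the member of the family usually tied to flavonoid synthesis, had a peak at or soon after its start in every H2A.Z library. Its covered shares were 14.5%, 15.6% and 7.01% in mbd9-1, against 20.9%, 15.2% and 21.5% in WT. Replicate 3 of mbd9-1 was low, and mbd9-1 replicate 2 lay just above WT replicate 2 (difference -6.81 points, exact permutation p = 0.2, adjusted p = 0.804). Leaving out either library of that overlap, mbd9-1 replicate 2 or WT replicate 2, put 4CL3 lower in every mbd9-1 library left. The same call was made at 23.8% and 30.9% of all genes tested. Without mbd9-1 replicate 3 the difference of 4CL3 was -4.13 points. 4CL3 was the only one of the 9 genes with a peak in all 6 H2A.Z libraries, as were 4.09% of all genes. With PAL4 it was 1 of 2 genes with a peak in every mbd9-1 library, against 7.07% of all genes.

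4CL2 (chr3:7454269-7457404, minus strand) had covered shares of 23.0%, 19.2% and 0% in mbd9-1, against 27.2%, 25.4% and 16.8% in WT. The mbd9-1 group overlapped WT through replicates 1 and 2, which lay above WT replicate 3. Without that WT library, which made the overlap, 4CL2 was lower in every mbd9-1 library, as were 25% of all genes tested. The difference was -9.07 points with all libraries in (exact permutation p = 0.3, adjusted p = 0.804). Its size rests on mbd9-1 replicate 3, without which it was -2.04 points. With 4CL3 and HCT, 4CL2 was 1 of 3 genes with a peak in every WT H2A.Z library, against 17.8% of all genes. This count was 5 without WT replicate 1 or 2, a looser rule that asks for fewer libraries than the 17.8% does. Of the 1000 bp upstream of 4CL2, 972 bp belong to the neighbouring transporter gene ABCC8, but no peak reached them, since the WT peaks began at 84, 84 and 212 bp after the start of 4CL2.

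A primer pair for PCR on precipitated chromatin lies in 4CL2, and its product is shown because it sits where the H2A.Z peaks of this gene end. The study used this pair for a site it classed as MBD9-independent from read counts, and reported no significant H2A.Z difference between WT and mbd9-1 there. Both primers, taken from the study's list, matched the genome once. The 103 bp product (chr3:7456280-7456382, minus strand, 1022 to 1124 bp after the gene start) is coding throughout. It is printed 5′ to 3′ on the strand of the gene, with the primer sites in capitals.
4CL2 product: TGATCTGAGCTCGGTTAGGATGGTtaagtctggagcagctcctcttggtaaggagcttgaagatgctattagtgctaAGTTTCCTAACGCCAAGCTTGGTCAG
Peaks covered 100%, 92.2% and 0% of the product in the mbd9-1 H2A.Z libraries, against 100%, 100% and 0% in the WT H2A.Z libraries. The product lies at the downstream edge of the H2A.Z block, as the peak of WT replicate 3 ended 115 bp short of it. In mbd9-1 replicate 3 the nearest peak was 5510 bp away.

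4CL1 (chr1:19158746-19161737, minus strand), the isoform best known for lignin, had covered shares of 12.4%, 0% and 0% in mbd9-1, against 26.5%, 0% and 13.4% in WT. WT replicate 2, without a peak, made the groups overlap (difference -9.14 points, exact permutation p = 0.4, adjusted p = 0.804). Without that library 4CL1 was lower in every mbd9-1 library, as were 30.9% of all genes tested. The difference was -15.8 points without WT replicate 2 but -2.56 points without WT replicate 1. 4CL5 (chr3:7448040-7452106, minus strand), a gene next to 4CL2 on the chromosome, had 13.2%, 9.30% and 0% in mbd9-1, against 10.9%, 0% and 8.45% in WT. The 2 groups of 4CL5 covered the same range (difference 1.08 points, exact permutation p = 0.8, adjusted p = 1), and leaving out single libraries moved the difference between -2.14 and 4.84 points.

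**Figure D3:**
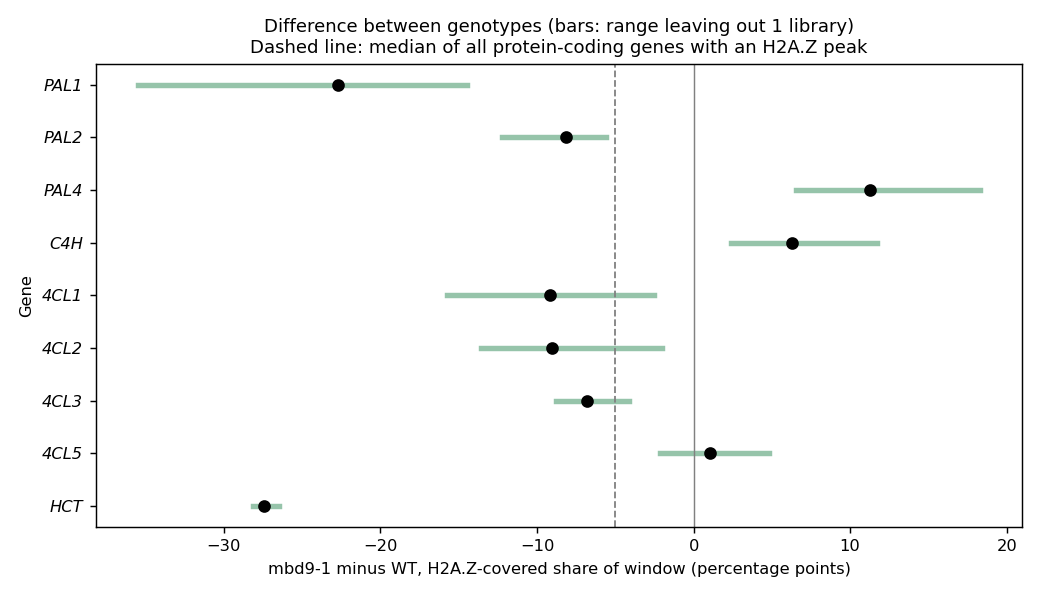
Difference in the H2A.Z-covered share of each window, mbd9-1 minus WT, in percentage points. Points are the difference of the means of 3 libraries, bars the range when 1 library is left out, and the dashed line the median of all genes with an H2A.Z peak (-5.03). The bar of HCT stays near -27.4, those of PAL4 and C4H stay above 0, and that of 4CL5 crosses 0.

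H4Ac peaks were called in WT at some genes of the pathway and not at others. PAL1, PAL2, 4CL1 and HCT had an H4Ac peak in all 3 WT libraries. These 4 of 9 genes are a share near the 38.9% of all genes. C4H had one in 2 libraries and PAL4 touched one in 1 library, by 36 bp at its end. 4CL2, 4CL3 and 4CL5 had none. Among the 4CL genes, 4CL1 had covered shares of 28.2%, 20.4% and 23.3% for H4Ac while the others had 0% in every library.

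Compared with H2A.Z in the same WT seedlings, 1 of 9 genes had more H4Ac in every library and 2 had less. Over 21622 genes with a peak of either mark in WT, 41.7% had more H4Ac and 15% had less. The median difference of the 9 genes, H4Ac minus H2A.Z, was -6.43 points, beside a median of 7.58 over the 21622 genes. These shares compare how much of a window was called with each antibody, not how much of each mark was there. The smallest adjusted p over all genes was 0.176, and no gene had an unadjusted p below 0.05.

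PAL2 was the gene with more H4Ac, with covered shares of 33.4%, 29.0% and 34.2% for H4Ac, against 0%, 11.3% and 13.3% for H2A.Z. Every H4Ac library lay above every H2A.Z library (difference 24.1 points, exact permutation p = 0.1, adjusted p = 0.176). With libraries of the same number taken as pairs, since the study split the chromatin of each sample between the antibodies, 2 genes had more H4Ac in every pair, PAL2 and 4CL1. 4CL1 had 28.2%, 20.4% and 23.3% for H4Ac, against 26.5%, 0% and 13.4% for H2A.Z. Without replicate 1 of both antibodies the genes with more H4Ac were also 2, and without replicate 2 they were 2 again, with C4H in place of 4CL1. These counts were not set beside all genes under the same rules. Such rules are easier to meet than the one behind the 41.7% of all genes. Over 3 pairs an exact sign-flip test cannot give a p below 0.25.

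4CL2 and 4CL3 were the genes with less H4Ac. 4CL2 had 0% in each H4Ac library, against 27.2%, 25.4% and 16.8% for H2A.Z, a difference of -23.1 points. 4CL3 had 0% in each H4Ac library, against 20.9%, 15.2% and 21.5% for H2A.Z, a difference of -19.2 points. Both had an exact permutation p of 0.1 and an adjusted p of 0.176, and in neither did any library overlap. 4CL5 had the same form, with no H4Ac, but WT replicate 2 also had no H2A.Z there (difference -6.43 points, exact permutation p = 0.4).

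Where both marks were called, they met in part. At HCT the H4Ac peaks covered 25.4%, 15.5% and 31.9% of the window, against 26.9%, 29.3% and 26.0% for H2A.Z, and the ranges overlapped (difference -3.19 points, exact permutation p = 0.7). The peaks of both marks shared 548, 454 and 673 bp there in WT replicates 1, 2 and 3, and HCT was the only one of the 9 genes where they overlapped in every replicate. At PAL1 the H4Ac peaks, at 1313 to 2085 bp, 1417 to 2125 bp and 1314 to 2120 bp, lay in the middle of the gene, over the second of the WT H2A.Z peaks and not over the one near the start. They shared 0, 709 and 546 bp with H2A.Z. At PAL2 the shared length was 0, 165 and 543 bp, and at 4CL1 it was 981, 0 and 534 bp.

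No peak was centred upstream of the genes, so the promoters were looked at for what they share in sequence. AC elements are short promoter motifs bound by MYB factors of the pathway, and their letters were searched as ACCAAC, or as ACCTAC, or as ACCAAT, on both strands of the 300 bp before each gene start. At least 1 of them was found in 7 of 9 promoters, against 36.5% of 27443 promoters of the same length. ACCAAC was in 5 of 9, against 13.6%, ACCTAC in 2 of 9, against 5.42%, and ACCAAT, whose letters include those of a CCAAT box, in 2 of 9, against 22.7%. PAL2 and 4CL1 had none of these strings in this stretch. HCT had 4 matches and 4CL2 had 3, with ACCAAT among those of both, although the upstream stretch of 4CL2 is also the end of ABCC8.

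The stretches with matches in HCT (chr5:19838246-19838335, minus strand, -100 to -11 bp from the gene start) and 4CL3 (chr1:24171686-24171765, minus strand, -130 to -51 bp) are printed 5′ to 3′ on the strand of the gene, with the matches in capitals. Both lay outside or at the very edge of the called peaks. The H4Ac peaks of HCT began at -6, 214 and -4 bp in WT, and the H2A.Z peaks of 4CL3 began at -41, 0 and 203 bp in mbd9-1 and at -54, 50 and -47 bp in WT. A match is a description of the letters and not of a bound site.
HCT: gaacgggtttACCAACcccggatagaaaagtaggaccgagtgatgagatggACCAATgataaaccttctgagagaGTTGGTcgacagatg
4CL3: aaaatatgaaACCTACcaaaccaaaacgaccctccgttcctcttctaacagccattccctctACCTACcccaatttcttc

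The 24 other genes of the pathway examined were PAL3, 9 genes of the lignin branch, 2 cytochrome P450 reductases that supply electrons to the P450s, 8 MYB regulators and 4 Kelch F-box genes, whose products mark PAL for breakdown. An H2A.Z peak in any mbd9-1 or WT library was found at 15 of the 24, against 15234 of 27444 protein-coding genes. Of these 15, 3 were lower and 1 was higher in every mbd9-1 library, beside the 17.9% and 2.17% of all genes with a peak. A peak in every WT and no mbd9-1 library was found at 2 of the 24, against 5.31% of all genes. H4Ac peaks were in all 3 WT libraries at 8 of the 24, against 38.9% of all genes. None of the 4 Kelch F-box genes had an H2A.Z peak, while both reductases had H4Ac in all 3 WT libraries.

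Of the lignin branch, F5H1 (AT4G36220, FAH1 in RefSeq), the ferulate 5-hydroxylase of syringyl lignin, had no H2A.Z peak in mbd9-1, against 19.0%, 20.4% and 15.4% of its window in WT. Its libraries did not overlap (difference -18.3 points, exact permutation p = 0.1, adjusted p = 0.498). F5H1 also had H4Ac over 18.6%, 16.4% and 20.2% of its window in WT, as HCT did. CSE (AT1G52760, LysoPL2 in RefSeq), the caffeoyl shikimate esterase that acts after HCT, showed the opposite. CSE had H2A.Z over 29.6%, 38.2% and 14.4% of its window in mbd9-1, against 0% in each WT library (difference 27.4 points, exact permutation p = 0.1, adjusted p = 0.498). It was the 1 gene of the 24 with a peak in every mbd9-1 and no WT library, as were 0.63% of all genes, and it carried H4Ac over 33.6%, 25.8% and 30.2% of its window in WT.

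Of the 8 MYB genes, 7 had an H2A.Z peak in any mbd9-1 or WT library. In every mbd9-1 library 2 of them were lower, beside 17.9% of all genes with a peak. The median difference over the 8 was 0.211 points, with the gene without a peak counted as no difference. Genes of the list differed in both directions, and no test was run over it. The 2 lower genes were MYB46 (AT5G12870) and MYB83 (AT3G08500), which act redundantly as switches of secondary wall formation. MYB83 had no H2A.Z peak in mbd9-1, against 28.2%, 25.1% and 31.4% of its window in WT (difference -28.3 points). MYB46 had 0%, 13.8% and 14.3% in mbd9-1, against 16.1%, 27.0% and 15.8% in WT (difference -10.3 points), so its groups lay apart by a narrow margin. All 3 WT libraries had a peak in the later part of MYB46, between 1286 and 1880 bp after the start, where mbd9-1 had none. Near the start the order was the other way, with peaks in mbd9-1 replicates 2 (-147 to 323 bp) and 3 (-98 to 389 bp), against a peak in WT replicate 2 only (23 to 483 bp). Both had an exact permutation p of 0.1 and an adjusted p of 0.498, and neither had H4Ac in WT.

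**Figure D4:**
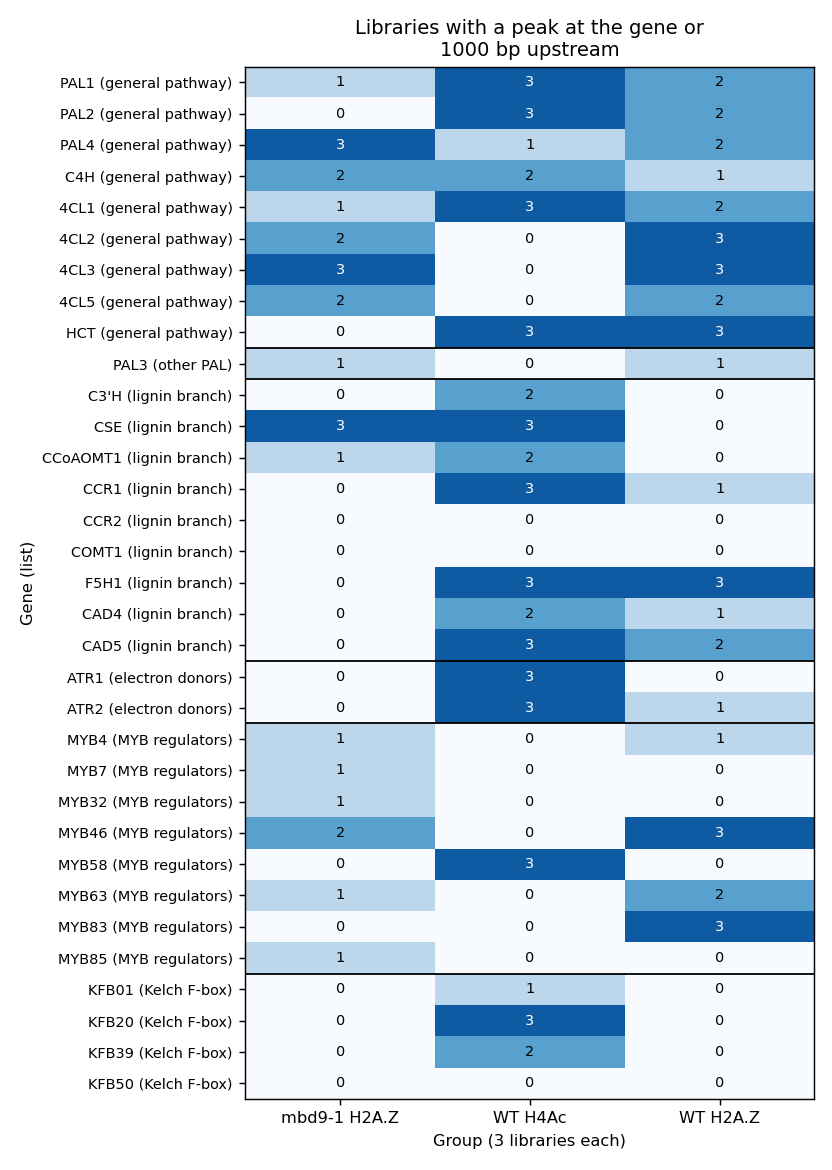
Number of libraries, out of 3 per group, with a peak at the gene or the 1000 bp upstream, for the 9 general pathway genes and 24 other pathway genes (rows), in mbd9-1 H2A.Z, WT H4Ac and WT H2A.Z (columns, left to right). HCT, F5H1 and MYB83 go with 0 libraries in mbd9-1 and 3 in WT for H2A.Z, while CSE has 3 in mbd9-1 and 0 in WT.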

How the data were processed

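Per the study's methods and processing notes, the authors aligned the single-end reads with Bowtie2 (TAIR10), filtered them with Samtools, removed organellar reads and called peaks for each library with HOMER against input. The threshold of the peak caller was not given in the sources used here. The deposited lists hold 3 columns (chromosome, start, end) and no score, height or p-value, so the values used are positions, an other kind of unit than counts. They give no depth per sample, so no precision could be computed from them. Windows came from RefSeq gene models of the same assembly. The covered share was the percentage of window bases under a library's peaks, compared by exact permutation tests over all genes with a peak, with Benjamini-Hochberg adjustment (Python 3.11.15, NumPy, SciPy). A peak counted with an overlap of 1 bp. The scripts were tested on simulated lists. The 9 genes and the lists were chosen with earlier results of these data known. Other pathway genes were named where the genotypes did not overlap or a peak was in all 6 H2A.Z libraries, besides PAL3, a list of 1 gene. Alternatives were other windows, overlaps of 200 bp, lists without their narrowest peaks or of equal length (the 5215 or 6263 widest), each replicate left out, and pairing. WT H4Ac and H2A.Z libraries of 1 number are pairs by the study's methods, though their deviations correlated by only -0.0215, -0.000564 and 0.0131 over 21622 genes.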

Additional observations from a re-analysis of the deposited data

How the results depend on the processing

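HCT was lower in every mbd9-1 library under each alternative run. The number of the 9 genes lower in every mbd9-1 library ranged from 1 to 3 when a replicate was left out: HCT with 4CL3 without mbd9-1 replicate 2, with PAL1 and PAL2 without WT replicate 1, with 4CL1 and 4CL3 without WT replicate 2, and with 4CL2 without WT replicate 3. Over all genes tested, this share was 15.6% to 30.9% across the alternatives. The number higher ranged from 0 to 1 without a replicate (C4H without mbd9-1 replicate 3, PAL4 without WT replicate 1) and was 1 with lists of equal length (PAL4). The median difference ranged from -8.17 to -4.13 points without a replicate, with -4.13 without mbd9-1 replicate 3, beside -4.75 over all genes tested. Genes with a peak in every WT library numbered 4 to 5 without a replicate. Genes with a peak in every WT and no mbd9-1 library numbered 1 to 2 without a replicate and 0 with 2000 bp upstream. Genes with more H4Ac numbered 1 to 2 without a replicate, with a median difference of -5.43 to -3.02 points, and 2 with the replicate block. A rule over fewer libraries is easier to meet. Apart from the genes lower, these counts were not set beside all genes at the same setting. The difference of 4CL5 ranged from -2.14 to 4.84 points without a replicate, being -1.79 without mbd9-1 replicate 1.

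The sources used here do not say whether same-numbered mbd9-1 and WT libraries were handled together. Their deviations correlated by 0.0114, -0.111 and 0.0277 over 15234 genes. The WT H4Ac and H2A.Z pairs, which do share chromatin, also correlated weakly, so this check cannot tell whether libraries are paired. With the replicate block, 2 genes were lower in every mbd9-1 library (4CL2 and HCT) and 1 was higher (PAL4). The cause of these changes was not tested. Positions alone do not show depth, so a missing peak is a missing call, and 3 libraries a group cannot reach a p below 0.1.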
